A study of Mus musculus with 3 samples.

Results

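Transcripts of the machinery that copies DNA, and of the enzymes that make its building blocks, were examined in heart tubes of mouse embryos that lack Sox7. The set held 46 genes, taken by symbol for their role in DNA replication and chosen with earlier results of these data known. All 46 were found among the 23337 gene symbols of the count tables. Their roles ran from origin recognition and licensing (5 genes), the replicative helicase (11), polymerases and primase (8), the sliding clamp and its loader (6), single-strand binding and Okazaki fragment maturation (5) and nucleotide supply (5) to chromatin assembly (3) and entry into S phase (3). Bulk RNA-seq had been done on heart tubes taken at embryonic day 9.5. The Sox7-null group, homozygous for the null allele, held 2 libraries (Sox7-null 1 and Sox7-null 2), and the wild-type group held 1. The labels name no other allele or agent and give no word on pooling of embryos. All p-values below therefore rest on how far the 2 null libraries differ, judged in large part over all genes together. That spread need not be biological variation, and the single wild-type library is taken to vary as much. Sox7 encodes a SoxF transcription factor of endothelial and endocardial cells, and the study asked which heart tube transcripts differ without it.

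A replication origin is bound by the origin recognition complex, onto which Cdc6 and Cdt1 load the MCM helicase in G1. In S phase the helicase is switched on by Cdc45 and the GINS complex, polymerase alpha-primase lays primers, and polymerases delta and epsilon extend them with the help of the clamp PCNA. Most of these genes are transcribed in a wave before and during S phase under E2F transcription factors, and at this stage the myocardium grows by division of its muscle cells.

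Gene reads came to 13139823 and 13618338 for the null libraries, against 13789388 for the wild type. Reads that did not align uniquely made up 10.4% and 11.6% of the null libraries and 22.3% of the wild type, and the part of this difference in the results was not tested. Sox7 itself had 2 and 7 reads in the null libraries, against 222 in the wild type. All 8 cardiomyocyte and all 6 endocardial and endothelial markers were detected in each library, whereas the 6 retina markers together had 2 and 3 reads in the null libraries, against 0 in the wild type.

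Replication and nucleotide genes were lower in the Sox7-null heart tubes. Of the 46, all passed the filter on low counts, 21 fell and 0 rose at an edgeR adjusted p under 0.05. Across all 13334 genes tested, 10.2% fell and 11.3% rose. The median log2 fold change of the 46 was -0.62, against 0.01 for all genes tested. Of the 46 values 45 were below 0, against 6554 of the 13334 genes tested. At an unadjusted p under 0.05, 30 members were lower and 0 higher, against 2272 lower and 2440 higher of the 13334 genes tested. Together the 46 genes took 31139 reads in Sox7-null 1 and 42192 in Sox7-null 2, against 57715 in the wild type, which was 0.237% and 0.310% against 0.419% of all gene reads. In bulk tissue, fewer cells that express a gene and less RNA per cell cannot be told apart.

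The null libraries were not equally far from the wild type. Sox7-null 1 was the lower for 44 of 46 members, with Pold2 and Rfc1 as the exceptions, while 49.5% of all tested genes had that order. Both null libraries were below the wild type for 41 of 46, against 43.0% of all tested genes. The 5 others were Rfc1, Mcm10, Pole, Lig1 and Chaf1a, whose level in Sox7-null 2 was at or above the wild type. Levels here are CPM, counts scaled to the TMM-adjusted library size. Against the wild type, the median log2 fold change was -0.84 for Sox7-null 1 alone and -0.43 for Sox7-null 2 alone.

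**Figure D1:**
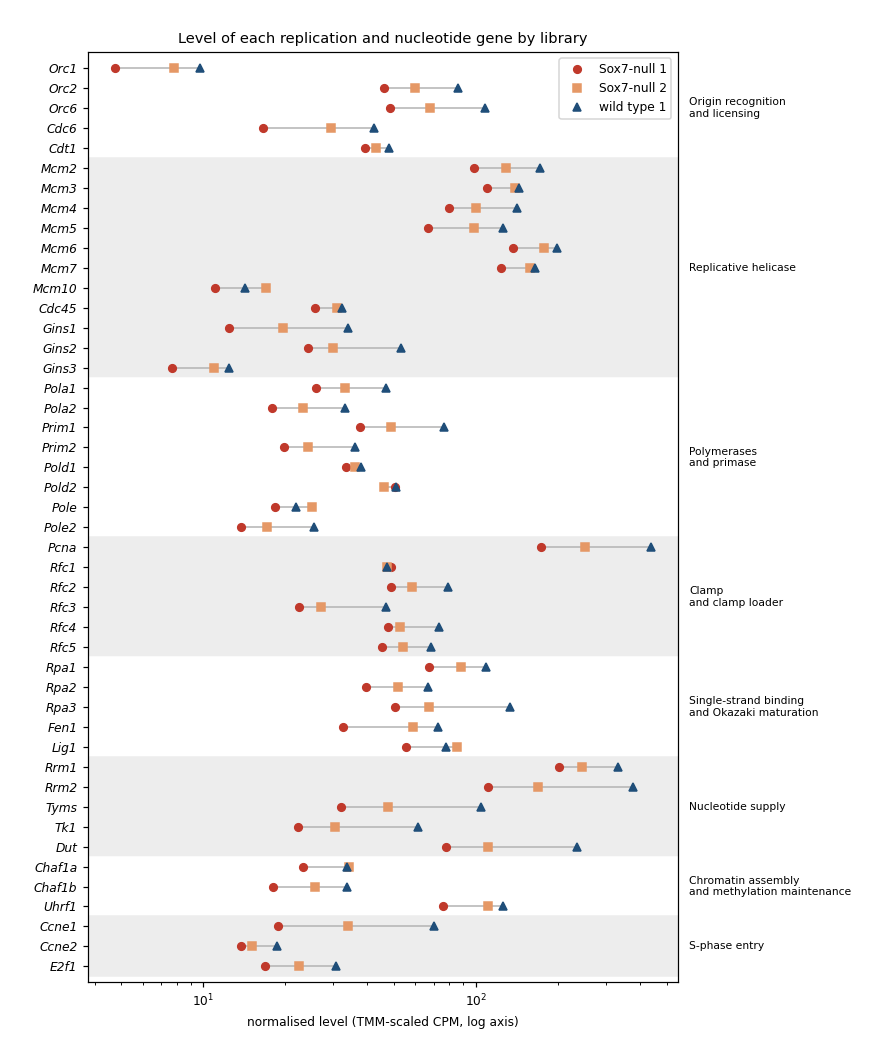
Normalised level of each of the 46 genes in each library, as TMM-scaled CPM on a log axis, with genes grouped by role; circles and squares are the 2 Sox7-null libraries and triangles the wild type. The wild type is the highest of the 3 for 41 genes, and Sox7-null 1 is below Sox7-null 2 for 44.

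The calls of 21 members rested in part on the test used. Of them, 10 also passed in each of 5 other settings (median-of-ratios scaling, a minimum mean of 5 CPM, limma-voom, DESeq2 and removal of a trend on transcript length and GC content), namely Rrm2, Tyms, Dut, Tk1, Ccne1, Rpa3, Pcna, Rfc3, Gins2 and Prim1. DESeq2 called 12 of the 21 and did not call Cdc6, Orc2, Mcm2, Mcm4, Pola1, Pola2, Prim2, Pole2 and Rrm1. With no filter on low counts edgeR called 0 of 17242 genes, members included, although 4113 had an unadjusted p under 0.05. There the prior degrees of freedom were 3.23, against 11.8 with the filter.

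The promoters of these genes are shown because the members moved together. RefSeq (build GRCm38.p6) gave a window from 250 bases before to 50 bases after the annotated start for 39 of the 46, and the first listed window was used for the 6 genes with several. Below are the 170 bases before the start, 5′ to 3′ on the gene's strand, of the 4 lower members with the smallest p that had a window (Rrm2, Dut, Tyms and Rpa3), and of the 3 lower members with an 8-letter E2F match before the start (Rfc3, Cdc6 and Pola1). Capitals mark the 7-letter E2F core (TTTCCCGC, TTTCGCGC, TTTGCCGC or TTTGGCGC without its first T) and the CCAAT box, the letters of its name, on either strand.
Rrm2 (chr12:24708084-24708253, plus strand): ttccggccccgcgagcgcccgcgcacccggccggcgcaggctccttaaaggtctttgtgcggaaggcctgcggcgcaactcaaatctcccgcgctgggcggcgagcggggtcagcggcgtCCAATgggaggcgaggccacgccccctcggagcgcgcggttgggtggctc
Dut (chr2:125247345-125247514, plus strand): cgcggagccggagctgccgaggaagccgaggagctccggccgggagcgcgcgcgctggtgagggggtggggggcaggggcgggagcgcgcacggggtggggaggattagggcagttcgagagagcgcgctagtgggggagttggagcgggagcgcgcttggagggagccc
Tyms (chr5:30073626-30073795, minus strand): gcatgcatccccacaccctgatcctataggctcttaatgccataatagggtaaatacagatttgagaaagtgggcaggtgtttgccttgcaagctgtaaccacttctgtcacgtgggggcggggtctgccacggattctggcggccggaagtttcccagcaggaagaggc
Rpa3 (chr6:8259142-8259311, minus strand): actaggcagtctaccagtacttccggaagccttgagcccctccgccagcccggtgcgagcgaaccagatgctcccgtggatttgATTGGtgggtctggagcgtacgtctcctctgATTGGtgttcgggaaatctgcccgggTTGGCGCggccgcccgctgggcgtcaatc
Rfc3 (chr5:151651209-151651378, minus strand): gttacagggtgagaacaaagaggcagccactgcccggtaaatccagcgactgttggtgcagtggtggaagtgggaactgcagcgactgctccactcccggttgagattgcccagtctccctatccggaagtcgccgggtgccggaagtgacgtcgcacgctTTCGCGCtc
Cdc6 (chr11:98907981-98908150, plus strand): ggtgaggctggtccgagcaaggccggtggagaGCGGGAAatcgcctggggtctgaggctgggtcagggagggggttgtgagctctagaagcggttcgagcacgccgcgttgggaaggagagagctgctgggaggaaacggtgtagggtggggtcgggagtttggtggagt
Pola1 (chrX:93632156-93632325, minus strand): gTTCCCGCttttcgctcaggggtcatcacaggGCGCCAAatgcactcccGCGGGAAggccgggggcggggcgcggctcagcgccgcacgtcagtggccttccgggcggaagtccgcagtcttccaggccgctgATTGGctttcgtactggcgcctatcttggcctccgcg

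An 8-letter E2F sequence, on either strand, stood in 12 of the 39 member windows, or 30.8%, against 2.32% of all 27025 windows and 2.92% of the windows of protein-coding genes. The 7-letter core, which every 8-letter match contains, stood in 22 (56.4%), against 9.69% of all windows and 12.2% of the protein-coding ones. A CCAAT box, the sequence bound by NF-Y, stood in 24 (61.5%), against 37.9% of all windows. Members that fell were found on both sides of this split, and the difference was not tested. Among the 22 genes with a core match 8 fell and the median log2 fold change was -0.56, and among the 17 without one 9 fell and the median was -0.67. Among the 12 genes with an 8-letter match 4 fell and the median log2 fold change was -0.51. Among the 27 without one 13 fell and the median was -0.62. A match is a run of letters, and no binding was measured here.

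**Figure D2:**
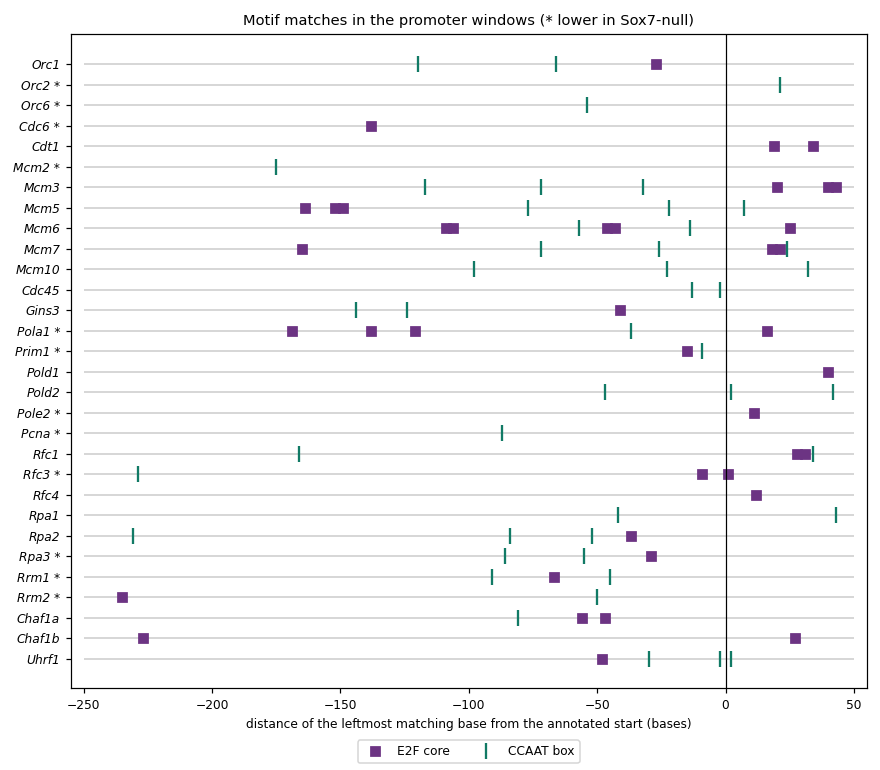
Matches to the 7-letter E2F core (squares) and the CCAAT box (bars) in the windows of the members that held at least 1, by the distance in bases of the leftmost matching base from the annotated start; an asterisk marks genes that fell. E2F matches lie on both sides of the start, and members with and without an asterisk carry them.

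Nucleotide supply was the role in which every member fell, 5 of 5, with a median log2 fold change of -1.32. Of all genes tested 10.2% fell, the share to set beside the count of each role here and below. Where a small role had 1 call, that is too few to weigh against this share. The summed level of the 5 nucleotide genes in the null libraries was 39.9% and 54.4% of that in the wild type. Rrm2 encodes the small subunit of ribonucleotide reductase, the enzyme that turns ribonucleotides into deoxyribonucleotides and whose small subunit accumulates in S phase. It had 110 and 169 CPM in the null libraries, against 376 in the wild type (log2 fold change -1.43 ± 0.22, SE, edgeR adjusted p = 0.00115). Both null libraries were below the wild type. The large subunit gene Rrm1, known to vary less through the cycle, had 201 and 246 CPM in the null libraries, against 333 in the wild type. At -0.58 ± 0.18 (edgeR adjusted p = 0.0348) its change was the smallest of the 5.

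The other 3 nucleotide genes act on thymidine and uracil. Dut encodes the dUTPase that keeps uracil out of DNA and yields the substrate for thymidylate synthesis. It had 77.4 and 111 CPM in the null libraries, against 234 in the wild type (log2 fold change -1.32 ± 0.21, edgeR adjusted p = 0.00145). Tyms, thymidylate synthase, stood at 32.0 and 47.8 CPM in the null libraries, against 105 in the wild type (-1.39 ± 0.23, edgeR adjusted p = 0.00174). A Tyms pseudogene listed in the files had 0 reads in every library. Tk1, the thymidine kinase of the salvage route, had 22.3 and 30.4 CPM in the null libraries, against 61.5 in the wild type (-1.22 ± 0.22, edgeR adjusted p = 0.00291). In all of them the higher null library stayed well below the wild type.

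**Figure D3:**
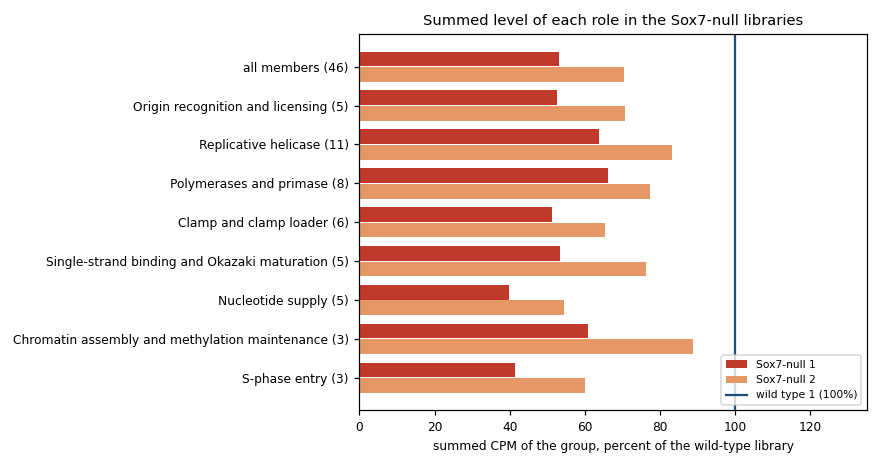
Summed CPM of the members of each role in Sox7-null 1 and Sox7-null 2, as a percentage of the wild-type library (line at 100%); the number of genes is in brackets. All bars lie below 100%, nucleotide supply has the shortest bars for Sox7-null 1 and Sox7-null 2, at 39.9% and 54.4%, and chromatin assembly reaches 88.6% in Sox7-null 2.

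Entry into S phase was examined through 3 genes, of which 1 fell. Ccne1, which encodes cyclin E1, the partner of Cdk2 at the start of S phase, had 18.8 and 34.1 CPM in the null libraries, against 69.9 in the wild type. Its log2 fold change was -1.40 ± 0.28 (edgeR adjusted p = 0.00426). The second E cyclin, Ccne2, had 13.7 and 15.2 CPM in the null libraries, against 18.7 in the wild type and did not pass (-0.37 ± 0.24, edgeR adjusted p = 0.296). E2f1, an activator of the S-phase genes, did not pass either, at -0.64 ± 0.23 (edgeR adjusted p = 0.0680), but was called once the length and GC trend was taken out (-0.90, edgeR adjusted p = 0.0163).

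Of the clamp and its loader 2 of 6 fell. Pcna, the clamp that tethers polymerases to DNA, was the most abundant member per kilobase of transcript in each library, at 114 and 166 CPM per kb in the null libraries, against 288 in the wild type. Its CPM were 173 and 252 in the null libraries, against 438 in the wild type (-1.04 ± 0.20, edgeR adjusted p = 0.00396). The loader, replication factor C, is built of a large subunit, Rfc1, and 4 small ones. Rfc3 fell, with 22.5 and 27.1 CPM in the null libraries, against 46.9 in the wild type (-0.92 ± 0.21, edgeR adjusted p = 0.00988). Rfc2, Rfc4 and Rfc5 had log2 fold changes between -0.56 and -0.47 and did not pass, although Rfc2 and Rfc5 did once that trend was taken out (-0.83 and -0.64). Rfc4 then stood at -0.09 (edgeR adjusted p = 0.801). Rfc1, the exception among the 46, had 48.8 and 47.2 CPM in the null libraries, against 47.1 in the wild type (0.03 ± 0.20).

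All 4 genes of polymerase alpha-primase, the primer-making complex, fell, with a median log2 fold change of -0.70 and a summed level in the null libraries of 52.7% and 67.4% of the wild type. Prim1, the catalytic primase subunit, had 37.7 and 48.9 CPM in the null libraries, against 76.1 in the wild type (-0.81 ± 0.21, edgeR adjusted p = 0.0169). Prim2, the large primase subunit, had 19.8 and 24.3 CPM in the null libraries, against 36.2 in the wild type (-0.71 ± 0.22). The accessory subunit gene Pola2 had 17.9 and 23.1 CPM in the null libraries, against 33.1 in the wild type (-0.69 ± 0.23). The catalytic subunit gene Pola1 had 25.9 and 33.1 CPM in the null libraries, against 46.7 in the wild type (-0.66 ± 0.22). These 3 had edgeR adjusted p between 0.0354 and 0.0479, and none passed with DESeq2. For the 2 fork polymerases 1 of 4 genes fell. That was Pole2, the second subunit of polymerase epsilon, with 13.7 and 17.1 CPM in the null libraries, against 25.4 in the wild type (-0.72 ± 0.24, edgeR adjusted p = 0.0467).

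The catalytic subunits of the fork polymerases did not pass, and their values depended on the length and GC trend. Pole, the catalytic subunit of the leading-strand polymerase, had 18.4 and 25.02 CPM in the null libraries, against 21.9 in the wild type (-0.01 ± 0.25), so that the wild type lay between the null libraries. Pold1, the catalytic subunit of polymerase delta, stood at -0.13 ± 0.21 and its partner Pold2 at -0.08 ± 0.20. With the trend removed Pold1 stood at -0.56 (edgeR adjusted p = 0.0738), Pole at -0.41, Pole2 at -0.37 and Pold2 at -0.12. In that fit Prim1 and Pola1 each stood at -0.68 and were still called. Pola2 stood at -0.60 and Prim2 at -0.46, and neither was called. The difference between the alpha-primase genes and the fork polymerase genes was not tested. The GC content of the longest transcript ran from 41.5% (Pola1) to 47.05% (Pola2) in the alpha-primase genes. It was 44.7% for Pole2, 50.6% for Pole, 58.8% for Pold2 and 61.0% for Pold1.

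The replicative helicase was mixed, with 4 of 11 members lower and 7 not past the threshold. The MCM2-7 hexamer, which unwinds the parental strands, had a median log2 fold change of -0.47. Mcm4 fell, with 79.4 and 100 CPM in the null libraries, against 141 in the wild type (-0.65 ± 0.20, edgeR adjusted p = 0.0324). Mcm2 fell too, with 98.7 and 129 CPM in the null libraries, against 172 in the wild type (-0.60 ± 0.20, edgeR adjusted p = 0.0485). Mcm5, at -0.61 ± 0.23 (edgeR adjusted p = 0.0739), had a wider error and did not pass, but was called with that trend taken out (-0.75). Mcm6, Mcm7 and Mcm3, at -0.34, -0.23 and -0.21, did not pass. Per kilobase, the 6 subunits ran from 19.7 (Mcm5) to 41.8 (Mcm7) CPM in Sox7-null 1, from 27.9 (Mcm4) to 53.2 (Mcm7) in Sox7-null 2, and from 37.2 (Mcm5) to 55.8 (Mcm7) in the wild type.

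Among the partners that switch the helicase on, 2 of 3 GINS genes fell. Gins1 had 12.5 and 19.6 CPM in the null libraries, against 34.1 in the wild type (-1.09 ± 0.26, edgeR adjusted p = 0.0116), and was not called with the length and GC trend removed. Gins2 had 24.2 and 29.9 CPM in the null libraries, against 53.2 in the wild type (-0.98 ± 0.21, edgeR adjusted p = 0.00720). The level of Gins2 is uncertain, because 67.3% of its annotated exon bases overlap those of Gse1 on the opposite strand. Gins3 (-0.41 ± 0.30) did not pass. Cdc45, which joins the hexamer to GINS, had 25.7 and 30.9 CPM in the null libraries, against 32.2 in the wild type (-0.19 ± 0.22, edgeR adjusted p = 0.584). Mcm10, needed for origin firing, had 11.0 and 17.0 CPM in the null libraries, on either side of 14.2 in the wild type.

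Origin recognition and licensing had 3 of 5 members lower. Orc6, the smallest subunit of the origin recognition complex, had 48.3 and 67.7 CPM in the null libraries, against 108 in the wild type (-0.90 ± 0.22, edgeR adjusted p = 0.0123). Cdc6, which helps load MCM, had 16.5 and 29.4 CPM in the null libraries, against 42.4 in the wild type (-0.88 ± 0.28, edgeR adjusted p = 0.0409), and the null libraries differed most here in relative terms among the 3. Orc2, another subunit of that complex, had 45.9 and 59.9 CPM in the null libraries, against 86.1 in the wild type (-0.70 ± 0.21, edgeR adjusted p = 0.0316), but 29.8% of its exon bases overlap Nif3l1 on the opposite strand. Orc1, an ATP-binding subunit, had few reads (64 and 108 in the null libraries, against 129 in the wild type) and did not pass (-0.63 ± 0.35, edgeR adjusted p = 0.225). Cdt1, the second loading factor, had 39.1 and 43.0 CPM in the null libraries, against 48.2 in the wild type (-0.23 ± 0.20). With the length and GC trend removed Orc6 was no longer called, and with DESeq2 neither Orc2 nor Cdc6 was.

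Single-strand binding and Okazaki maturation had 1 of 5 lower. Rpa3, the small subunit of replication protein A, which coats unwound DNA, had 50.4 and 67.1 CPM in the null libraries, against 134 in the wild type (-1.19 ± 0.21, edgeR adjusted p = 0.00226). Its partners Rpa1 (-0.49 ± 0.21) and Rpa2 (-0.55 ± 0.22) were below the wild type in both null libraries and did not pass, though Rpa1 did with that trend taken out (-0.71). Fen1, the flap nuclease of Okazaki fragments, had 32.6 and 58.8 CPM in the null libraries, against 72.9 in the wild type (-0.67 ± 0.28, edgeR adjusted p = 0.101). Most of its exon bases, 78.8%, overlap an antisense gene, so its level is uncertain. Lig1, the ligase that seals the fragments, had 55.5 and 85.0 CPM in the null libraries, with 78.0 in the wild type between them (-0.15 ± 0.24).

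Genes that restore chromatin behind the fork included 0 of 3 past the threshold, and 1 of the 3 (Chaf1b) at an unadjusted p under 0.05. Chaf1a and Chaf1b, subunits of the histone chaperone CAF-1, stood at -0.23 ± 0.25 and -0.62 ± 0.24, with edgeR adjusted p of 0.539 and 0.0837. Uhrf1, which brings the maintenance methyltransferase to new DNA, had 76.1 and 111 CPM in the null libraries, against 125 in the wild type (-0.42 ± 0.22, edgeR adjusted p = 0.197). DESeq2, limma-voom and the fit with the trend removed also called 0 of these 3, and in that last fit Chaf1a stood at -0.71 (edgeR adjusted p = 0.0713) and Uhrf1 at -0.65 (edgeR adjusted p = 0.0614).

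**Figure D4:**
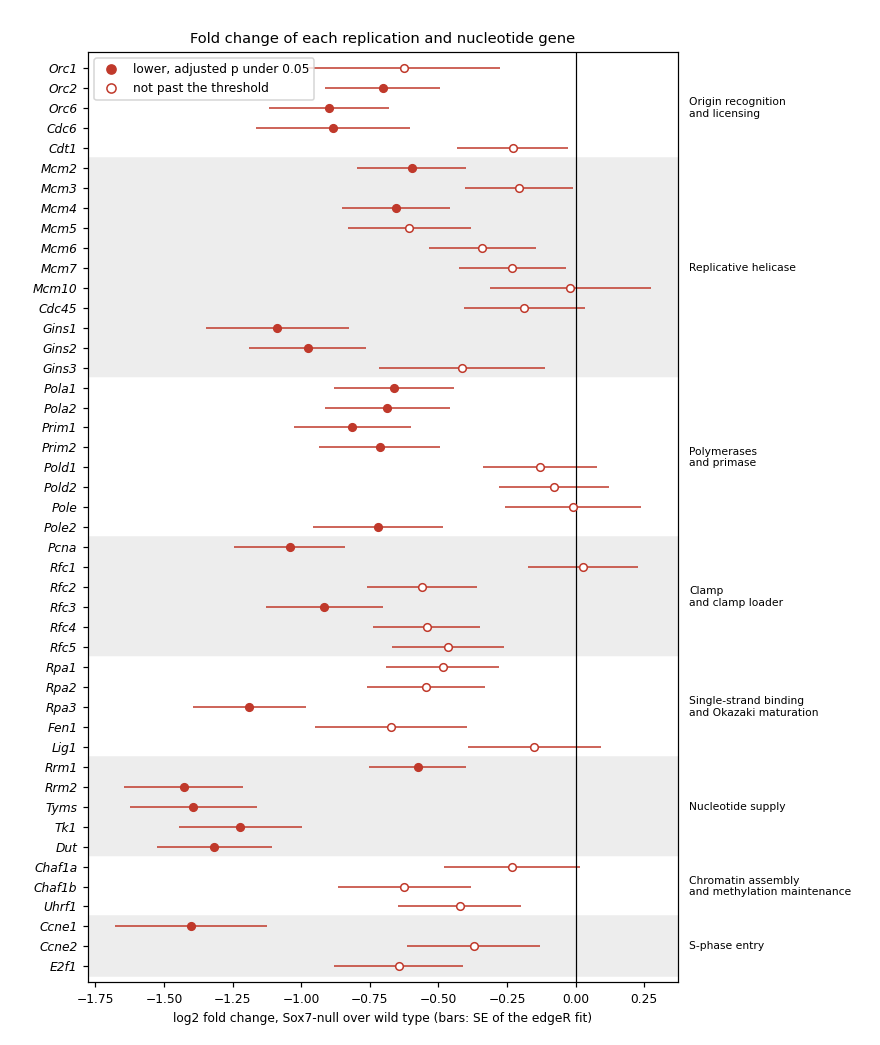
Log2 fold change of each of the 46 genes, Sox7-null over wild type, with the standard error of the edgeR fit; filled points are the 21 past an adjusted p of 0.05. Points right of 0 are absent but for Rfc1, at 0.03, and the lowest 5 are Rrm2, Ccne1, Tyms, Dut and Tk1, between -1.43 and -1.22.

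The members that fell differed from the others in length and GC content. The 21 that fell had a median transcript length of 2.73 kb and a median GC content of 45.5%, against 3.21 kb and 51.4% in the 25 others and 3.43 kb and 49.8% in all genes tested. Spearman's rho of the log2 fold change was 0.39 with length and 0.37 with GC over the 46 genes, and 0.30 and 0.16 over all tested genes, which share the same 3 libraries. With the trend removed 21 members were lower and 0 higher, 16 of them shared with the list above. Over all 13207 genes of that fit, 2175 were called in either direction. Gins1, Orc6, Pola2, Prim2 and Pole2 were then no longer called, Mcm5, Rfc2, Rfc5, Rpa1 and E2f1 were, and the median was -0.64 (-0.05 for all genes). The members lower in both fits moved both ways. Rpa3 went from -1.19 to -0.74 and Pcna from -1.04 to -0.67, whereas Cdc6 went from -0.88 to -1.09 and Mcm2 from -0.60 to -0.75. Among those no longer called, Gins1 stood at -0.64, Orc6 at -0.51, Prim2 at -0.46 and Pole2 at -0.37. Members that passed in neither fit moved both ways, such as Cdt1, at -0.46, and Ccne2, at -0.10. Annotated exons of 17 members overlap another gene, and for 7 the overlap with a gene of the files exceeds 10% of exon bases, up to 67.3% in Gins2 and 52.5% in Chaf1a. Because the strand setting of the counts is not known, reads of these pairs cannot be told apart.

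Other genes of the fork and the origin were taken as a list of their own. Of 37 tested, 13 fell (35.1%), 0 rose and 24 did not pass, against 10.2% lower and 11.3% higher of all genes tested. The median log2 fold change was -0.43. At an unadjusted p under 0.05, 17 were lower and 2 higher, against 2272 and 2440 of the 13334 genes tested. The higher ones were Pold4 (0.88 ± 0.35) and Mtbp (0.56 ± 0.23), named after their values were seen. With the trend removed 10 of the 37 were called. Asf1a, a histone chaperone, had 680 and 810 reads in the null libraries, against 1662 in the wild type (-1.20 ± 0.19, edgeR adjusted p = 0.00146). Slbp, which binds the stem-loop of histone mRNAs, had 580 and 786 reads in the null libraries, against 1440 in the wild type (-1.12 ± 0.21, edgeR adjusted p = 0.00325). Pole4, an accessory subunit of polymerase epsilon, stood at -0.98 ± 0.19. Gins4, the remaining GINS gene and named here after its value was seen, stood at -0.72 ± 0.20 (edgeR adjusted p = 0.0217), and was not called with the trend removed.

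Deoxynucleotide and folate genes went both ways, with 3 of 13 higher and 3 lower, or 23.1% each way. Of all genes tested, 11.3% rose and 10.2% fell. The 3 that rose make one-carbon units in mitochondria, namely Shmt2, with 4196 and 3559 reads in the null libraries, against 891 in the wild type (2.08 ± 0.20, edgeR adjusted p = 9.3e-05), Mthfd2 (1.88 ± 0.22) and Mthfd1l (1.60 ± 0.21). Among those that fell, named after their values were seen, was the thymidylate kinase gene Dtymk, with 471 and 708 reads in the null libraries, against 1410 in the wild type (-1.30 ± 0.23). Shmt1, the cytosolic counterpart of Shmt2, fell as well (-0.71 ± 0.22) but did not pass with DESeq2 or with a minimum mean of 5 CPM. In purine and pyrimidine synthesis 4 of 20 fell (20%) and 1 rose (5%), with a median of -0.31. Nme1, Cmpk1 and Umps fell, at -1.01, -0.83 and -0.92. Nme1 has a close paralog in Nme2, so reads of the 2 may be split. Nme2, its value given after it was seen, fell as well (-0.60 ± 0.15, edgeR adjusted p = 0.0139), but was not called with the trend removed.

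In the E2F and RB family 2 of 14 fell and 2 rose, or 14.3% each way, near the 10.2% and 11.3% of all genes tested. E2f2, an activator, had 42 and 85 reads in the null libraries, against 166 in the wild type (-1.43 ± 0.38, edgeR adjusted p = 0.0180), E2f5 stood at -0.87 ± 0.22, and the restraining factor Rb1 rose, with 411 and 305 reads in the null libraries, against 181 in the wild type (0.95 ± 0.26, edgeR adjusted p = 0.0229), and none of the 4 passed with DESeq2. Of 14 G1 cyclins, kinases and inhibitors 3 fell (21.4%) and 2 rose (14.3%). The inhibitor Cdkn1a (p21), which blocks cyclin-Cdk2 and binds PCNA, had 1234 and 660 reads in the null libraries, against 215 in the wild type (2.10 ± 0.34, edgeR adjusted p = 0.00160). Cdkn1b (p27) rose as well (1.19 ± 0.23), whereas Cdkn1c (p57) fell (-0.63 ± 0.14). Ccnd1, cyclin D1, had 1118 and 1196 reads in the null libraries, against 1711 in the wild type (-0.60 ± 0.18, edgeR adjusted p = 0.0328), and did not pass with DESeq2.

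Among mitotic genes the changes went both ways. Of 35 tested, 6 fell (17.1%) and 2 rose (5.71%), against 10.2% and 11.3% of all genes tested. The median log2 fold change was -0.12. Mki67, the proliferation marker Ki-67, had 1358 and 1370 reads in the null libraries, against 1300 in the wild type (0.03 ± 0.19, edgeR adjusted p = 0.931). Top2a, the topoisomerase that separates sister chromatids, rose, with 5394 and 5507 reads in the null libraries, against 3731 in the wild type (0.51 ± 0.16, edgeR adjusted p = 0.0426), but not with DESeq2, limma-voom or the trend removed. Cks2, Mad2l1 and Cenpa fell, at -0.96, -0.94 and -0.84, Cks2 not with the trend removed. In the checkpoint and repair list 0 of 18 passed with edgeR or DESeq2. At an unadjusted p under 0.05 there were 3 lower and 1 higher of the 18, against 2272 and 2440 of the 13334 genes tested. Its smallest p were those of the kinase genes Chek1 (-0.59 ± 0.23) and Wee1 (-0.53 ± 0.21) and of the crosslink repair gene Fancd2 (0.65 ± 0.28). The difference between the 46 and these lists was not tested.

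Replication-dependent histone genes, whose mRNAs lack a poly(A) tail, had few reads. The protocol text, which speaks of retinal organoids, names a total RNA kit. All 39 together had 687 and 704 reads in the null libraries, against 980 in the wild type. Of the 21 tested 2 fell (9.52%) and 0 rose, against 10.2% and 11.3% of all genes tested. Those that fell were Hist1h1a, with 1 and 1 reads against 17, and Hist1h2bj, with 6 and 5 against 26. Hist1h2bb, with 5 and 10 reads against 28, did not pass. Hist1h1a and Hist1h2bj had fewer than 10 reads in each null library, so they passed the filter through the wild type alone. Such entry favours negative values among the genes tested. The 2 calls and the median log2 fold change of -1.10 over the 21 rest on it and on low counts.

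**Figure D5:**
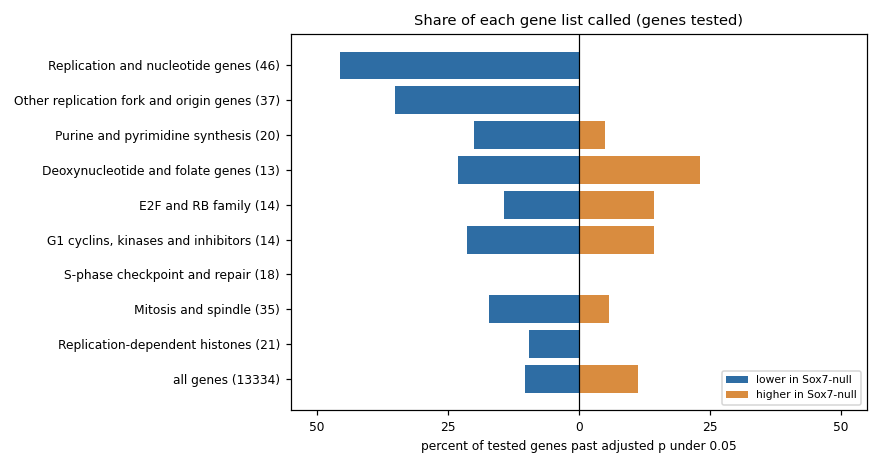
Percentage of the tested genes in each list that were lower (left) or higher (right) in Sox7-null at an edgeR adjusted p under 0.05, with the number tested in brackets and all genes in the last row. The replication and nucleotide genes have 45.7% lower and 0% higher, against 10.2% and 11.3% of all genes.

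Markers of several cell types differed between the libraries, here as CPM without TMM scaling. Beside the marker counts below, 10.2% of all genes tested fell and 11.3% rose. The 8 cardiomyocyte markers summed to 31640 and 30390 CPM in the null libraries, against 23100 in the wild type, and 4 rose; the 6 endothelial markers summed to 383 and 359 CPM in the null libraries, against 313 in the wild type, with 1 higher and 1 lower. The 7 primitive erythroid markers, none at 0 reads, summed to 4633 CPM in Sox7-null 1 and 14510 in Sox7-null 2, against 13370 in the wild type, and 0 of 7 passed the test in either direction. The summed TMM-scaled CPM of the 46 replication and nucleotide genes was 53.1% (Sox7-null 1) and 70.3% (Sox7-null 2) of that in the wild type. The 6 liver and foregut endoderm markers had 27 and 20 reads in all in the null libraries, against 595 in the wild type, with Alb at 0 in both null libraries and Foxa1 at 0 in Sox7-null 1, and 5 of 6 fell. Alb passed the filter on low counts through the wild type alone, and others of the 6 may have too, which favours calls of lower. The 5 megakaryocyte markers, none at 0, had 2957 and 1729 reads in the null libraries, against 434 in the wild type, and all 5 rose. Epicardial markers (4, none at 0) summed to 230 and 149 CPM in the null libraries, against 154 in the wild type, and macrophage markers (5, none at 0) to 14.5 and 5.07 CPM in the null libraries, against 11.8 in the wild type, with 1 epicardial marker higher and 1 of 3 tested macrophage markers lower. Neural tube markers (5) had 27 and 16 reads in the null libraries, against 20 in the wild type, with Neurog2 and Sox1 at 0 in every library and Olig2 at 0 in Sox7-null 2 and the wild type. The part of these cell types in the values of the 46 genes was not tested.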

How the data were processed

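Each deposited table gives raw counts (whole numbers of reads) for mouse gene symbols in 1 library. Tools named per the submitters' processing notes are TopHat2, HTSeq, CASAVA and DESeq2 1.10.1. These notes name human builds (hg19 and GRCh37) although the symbols are those of mouse, so no coordinates are taken from the counts. Which annotation and strand option HTSeq was run with is not given in the sources used here, so overlapping or antisense genes and near-identical copies are uncertain. Per the labels' protocols, a stranded total RNA kit was used. The protocol text speaks of retinal organoids and the tissue label of heart tubes, which was followed.

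The 5 summary lines were left out. They held reads outside any feature (8.10% and 8.52% of the null libraries, 11.7% of the wild type), ambiguous reads (2.27% and 2.29%, against 1.97%) and reads not aligned uniquely. Counts were tested with edgeR 4.0.16 (R 4.3.3; TMM factors 1.03, 1.01 and 0.962; filterByExpr with a minimum count of 10; glmQLFit and glmQLFTest), with Benjamini-Hochberg adjustment over 13334 genes. There was 1 residual degree of freedom beside 11.8 prior ones, and the biological coefficient of variation was 15.0%. A standard error is the log2 fold change divided by the square root of F. Member levels are given as TMM-scaled CPM in place of reads. Values per kilobase use the longest GENCODE M21 transcript, as do length and GC, known for 99.1% of tested genes. The code was tested on simulated data. limma 3.58.1 (voom) and DESeq2 1.42.0 were alternatives. So was a length and GC trend (mgcv 1.9.3, fitted per library to log CPM with a pseudocount of 0.5), entered as offsets.

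The members and gene lists were chosen with earlier results of these data known. The text names every member, of each other list the 3 genes with the smallest p, and Cdkn1a, Ccnd1, Mki67, Top2a and Sox7. Supt16 and Rad9a of the lists were found under older symbols, and Ticrr was not analysed here. One gene of the lists is counted but not reported here by name.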

Additional observations from a re-analysis of the deposited data

How the results depend on the processing

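No paired analysis was possible because the wild type has 1 library. Median-of-ratios scaling kept all 21 calls among the 46 genes. A minimum mean of 5 CPM kept 16, limma-voom 17, DESeq2 12, and the length and GC trend 16 of 21 with 5 others added. Genes higher numbered 0 in each. The median log2 fold change lay between -0.64 and -0.60 in these settings and with no filter on low counts, and at -0.43 and -0.84 without Sox7-null 1 or Sox7-null 2, where no test was possible. Without that filter 0 genes were called, against 2874, and so 0 of each list. DESeq2 called 1662 genes in all, with 8 of the other fork and origin genes (13 with edgeR), 0 of the E2F and RB family (4), 3 of the G1 genes (5) and 0 histone genes (2). The trend's removal left 2175 genes in all, 2 of the E2F and RB family, 4 of the mitotic genes (8) and 1 histone gene, and added 1 checkpoint gene (0). The minimum mean of 5 CPM left 0 histone genes. Values near 0 changed sign for Pole without the filter (0.0045) and for Rfc1 with the trend removed (-0.094). The cause of these changes was not tested. At this depth Orc1 and Gins3 had at most 129 and 165 reads in a library.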
